A study of Mus musculus with 15 samples.

Results

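The data on 10 genes of the muscle atrophy program were followed in the gastrocnemius of aged mice, namely the ubiquitin ligase genes Fbxo32, Trim63, Fbxo30, Fbxo31 and Fbxo40, the transcription factor genes Foxo1, Foxo3, Foxo4 and Klf15, and Cavin4 (listed under its older symbol Murc). The genes were chosen by name, with earlier results of these data known, and were matched by symbol to the Ensembl identifiers of the count table. All 10 had 1 identifier among the 55450 genes counted, and all 10 were among the 16920 genes that passed the filter on low counts. In the lowest library of the lowest of them there were 241 counts, and in the highest there were 146952.

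RNA was sequenced from 15 mice (C57BL/6JN females, all aged above 17 months), in 4 groups formed by frailty and running. Low Control (n = 4, mice D8, D9, D11 and D98) and Low Run (n = 4, D57, D61, D66 and D68) are labelled robust and had at most 1 positive frailty marker. High Control (n = 3, D23, D25 and D67) and High Run (n = 4, D49, D52, D53 and D62) are labelled frail and had at least 2. Run mice ran downhill on a treadmill on consecutive days, with the belt tilted down by 22 degrees and moving at 13 m/min, and muscle was taken 24 h after the last bout, while Control mice stayed in their cages. Frailty was scored on physical performance, body weight and a deficit index, and the groups were set after the tissue was collected. Each library is 1 mouse, p-values therefore measure the spread between mice, and all groups share strain and sex, with only the lower bound of age given. The sample labels name no allele, agent or sequencing batch.

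Muscle mass depends on the balance between protein synthesis and degradation. When insulin and growth factor signaling falls, or glucocorticoids rise, FoxO transcription factors enter the nucleus and activate a set of "atrogenes", of which Fbxo32 (atrogin-1, MAFbx) and Trim63 (MuRF1) are the best known. Both encode muscle-restricted E3 ubiquitin ligases, which attach ubiquitin to proteins and send them to the proteasome, and both rise in fasting, denervation, disuse and glucocorticoid excess. The glucocorticoid receptor and its target Klf15 act with FoxO1 on several of the same genes.

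Values are counts scaled to library size (CPM) with TMM, a correction for library composition, and differences between groups are log2 fold changes from edgeR's quasi-likelihood F-test with their standard error (SE). A gene was called at a false discovery rate (FDR) under 0.1 over all 16920 genes. Libraries held 19395125 to 30699216 counts, and counting error was small beside the spread between mice, since pairs of mice from the same group differed by a chi-square of 15.9 to 208.7 per degree of freedom, which sampling noise alone would hold near 1. Low Control mouse D9 and High Run mouse D62 stood apart from the other libraries, at -76 and -49.3 on a first principal component that held 26% of the variance, so results are given with and without them. All 8 skeletal muscle markers were detected in every mouse. Whole muscle was sequenced, and fewer cells of a type and less RNA per cell cannot be told apart.

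Trim63 (chr4:134315120-134329629, plus strand, GRCm38) encodes the ligase that targets thick-filament proteins of the sarcomere. Its level was 1413, 6083, 452 and 212 CPM in Low Control mice D8, D9, D11 and D98, and 427, 308, 385 and 572 CPM in Low Run mice D57, D61, D66 and D68. In High Control mice D23, D25 and D67 it was 736, 458 and 589.9 CPM, and in High Run mice D49, D52, D53 and D62 it was 363, 364, 401 and 3834 CPM. D9 and D62 held the highest values of all 15 mice and D8 the next highest, and the remaining 12 mice lay between 212 and 736 CPM, so that every pair of groups overlapped. The Low Control mean was 2040 ± 2745 CPM (SD, n = 4), an SD larger than the mean.

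Trim63 also carries motifs in its proximal promoter that most genes lack, which is why its sequence is shown here beside those of Klf15 and Cavin4, and of Fbxo40, a ligase gene that did not follow it across mice. The windows are the 250 bases before the RefSeq transcription start on GRCm38.p6, written 5′ to 3′ on the strand of the gene, with motif matches in capitals. Such windows were at hand for 8 of the 10 genes, and those of Fbxo32 and Foxo4 were not analysed here.
Trim63 promoter, chr4:134314870-134315119, plus strand: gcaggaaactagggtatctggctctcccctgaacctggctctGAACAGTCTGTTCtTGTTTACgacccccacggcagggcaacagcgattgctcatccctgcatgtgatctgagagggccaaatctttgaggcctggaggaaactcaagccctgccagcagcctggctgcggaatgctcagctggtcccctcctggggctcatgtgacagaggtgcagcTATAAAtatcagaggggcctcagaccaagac
Cavin4 promoter, chr4:48663264-48663513, plus strand: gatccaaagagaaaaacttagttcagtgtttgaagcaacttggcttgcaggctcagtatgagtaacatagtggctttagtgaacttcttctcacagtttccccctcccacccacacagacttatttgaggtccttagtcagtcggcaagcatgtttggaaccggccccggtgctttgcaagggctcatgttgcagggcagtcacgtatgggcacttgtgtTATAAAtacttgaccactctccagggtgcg
Klf15 promoter, chr6:90462326-90462575, plus strand: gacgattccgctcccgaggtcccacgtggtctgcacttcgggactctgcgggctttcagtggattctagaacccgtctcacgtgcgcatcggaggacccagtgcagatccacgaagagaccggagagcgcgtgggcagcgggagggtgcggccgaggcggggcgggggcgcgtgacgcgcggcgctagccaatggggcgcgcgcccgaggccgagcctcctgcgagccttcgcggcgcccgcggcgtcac
Fbxo40 promoter, chr16:36990468-36990717, minus strand: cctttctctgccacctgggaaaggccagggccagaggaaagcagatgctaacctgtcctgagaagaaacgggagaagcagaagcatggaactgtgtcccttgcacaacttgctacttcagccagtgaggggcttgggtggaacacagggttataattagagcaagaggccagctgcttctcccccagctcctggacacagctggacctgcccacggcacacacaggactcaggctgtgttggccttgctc
The motifs searched, on both strands, were TGTTTAC (the FoxO core), the palindrome of the glucocorticoid receptor (GAACA and TGTTC with any 3 bases between them) and TATAAA (the TATA box). Trim63 held the palindrome from 208 to 196 bases before its start, the FoxO core from 194 to 188, and the TATA box from 31 to 26. The first of these is written GAACAGTCTGTTC and is separated from the FoxO core by a single base. Of 32851 RefSeq promoter windows of the same length, 13 held the palindrome (0.0396%), 1040 the FoxO core (3.17%) and 4063 the TATA box (12.4%). Cavin4 held a TATA box from 30 to 25 bases before its start, and the other 6 genes with a window, Klf15 and Fbxo40 among them, had no match to any of the 3. Fbxo40 has another window, for a different start, at chr16:36979137-36979386. It is not printed and had no match either. A match is a run of letters and not a measured binding site.

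Fbxo32 (chr15:58175879-58214932, minus strand) encodes the substrate adaptor of an SCF ligase that targets MyoD and the translation factor eIF3f. It was measured at 1726, 3839, 566 and 369.9 CPM in the Low Control mice (D8, D9, D11 and D98), and at 441, 411, 415 and 772 CPM in the Low Run mice (D57, D61, D66 and D68). The High Control mice (D23, D25 and D67) had 859, 458 and 826 CPM, and the High Run mice (D49, D52, D53 and D62) had 574, 445, 540.3 and 3293 CPM. The mice ranked as for Trim63, with D9 and D62 highest and D8 the next, and the groups overlapped. An antisense gene, Gm15943, overlaps Fbxo32, and the counts used here were taken on the same strand as each gene.

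**Figure D1:**
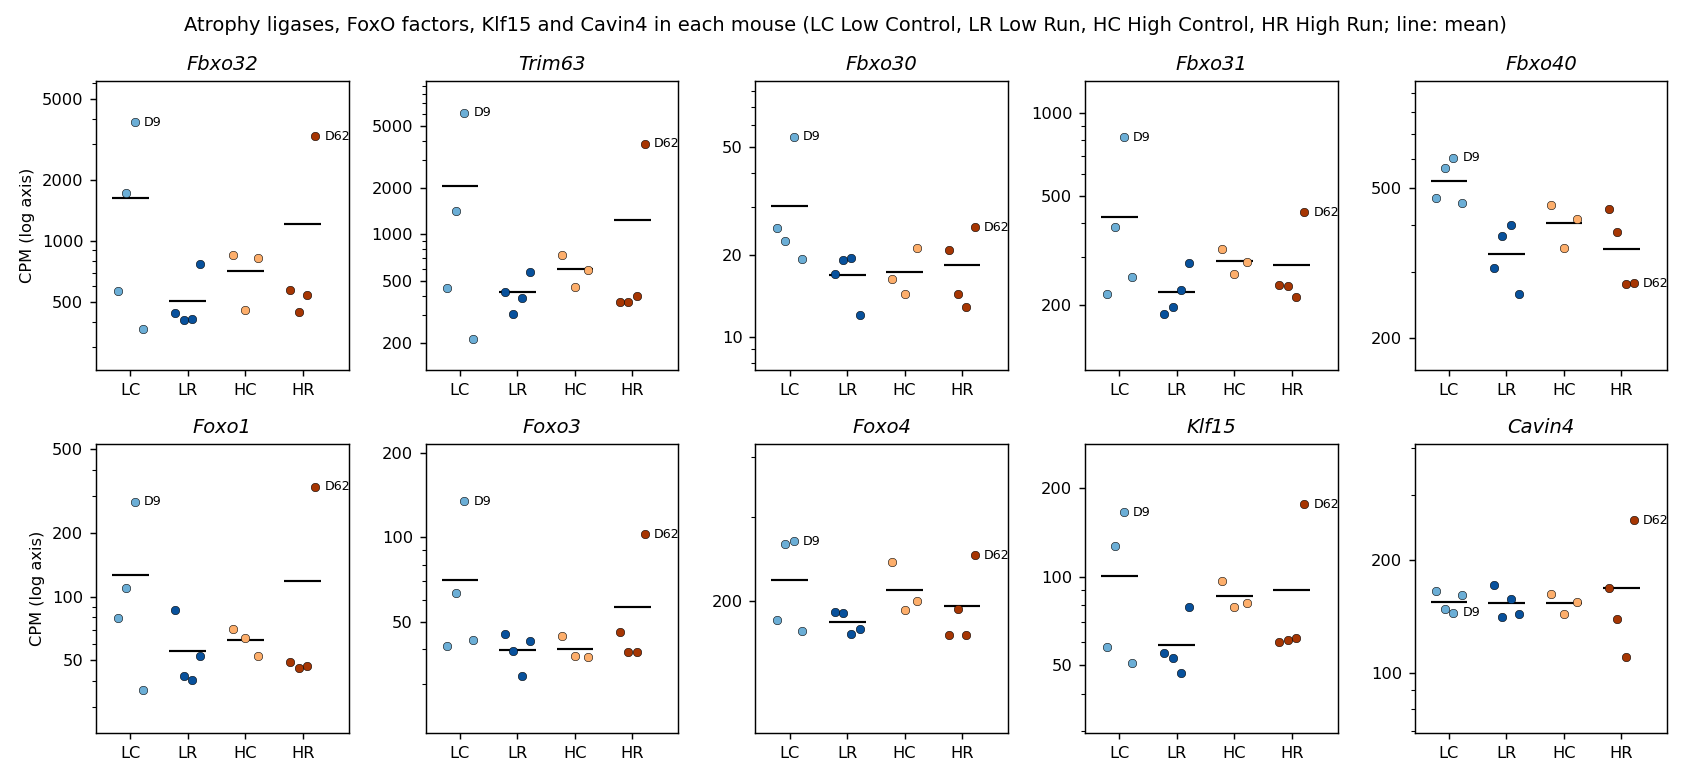
Level of each of the 10 genes in every mouse, as TMM-scaled CPM on a log axis that differs between panels, with points for mice by group and a line at the group mean. D9 and D62 sit above the other mice of their groups for every gene except Fbxo40, where D62 is low at 279 CPM, and Cavin4, where D9 is lowest of its group at 145 CPM.

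Fbxo31 (chr8:121549440-121578806, minus strand), the adaptor that directs cyclin D1 to degradation, had 385, 819, 219.5 and 253 CPM in Low Control mice and 186, 198, 228 and 286 CPM in Low Run mice, in the same mouse order. High Control mice had 321, 259 and 287 CPM and High Run mice 237, 234, 214 and 436 CPM. D9 and D62 were again the highest, by a smaller ratio than for Trim63. Fbxo31 overlaps Gm20388 on the opposite strand.

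Fbxo30 (chr10:11281330-11298052, plus strand), or MUSA1, a ligase adaptor induced in denervated muscle and held down by BMP signaling, was the least abundant of the group. Low Control mice had 22.4, 54.4, 25.2 and 19.3 CPM and Low Run mice 17.0, 19.2, 19.5 and 12.1 CPM. High Control mice had 16.4, 14.3 and 21.3 CPM and High Run mice 20.9, 14.3, 12.9 and 25.2 CPM. D9 stood well above the other 14 mice, D62 was only slightly above D11, and the lowest Low Control mouse lay just below the highest Low Run mouse.

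Fbxo40 (chr16:36963460-36990467, minus strand), a muscle-restricted F-box gene whose product targets the insulin receptor substrate IRS1, showed another arrangement. Low Control mice had 566, 604.5, 471 and 458 CPM, and Low Run mice had 306, 372, 399 and 262 CPM. High Control mice had 451, 346 and 414.5 CPM, and High Run mice had 441.5, 383, 278.5 and 279 CPM. All 4 Low Control mice were above all 4 Low Run mice and above all 3 High Control mice, D9 was within 1.28 times the median of its group, and D62 was among the lowest mice. High Control and High Run overlapped.

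Among the FoxO factors, Foxo1 (chr3:52268336-52353221, plus strand), which activates both Fbxo32 and Trim63, had the widest spread. It was at 110.5, 282, 79.4 and 36.3 CPM in Low Control, at 86.3, 42.3, 40.45 and 52.3 CPM in Low Run, at 70.3, 63.9 and 52.2 CPM in High Control and at 49.2, 45.95, 47.1 and 332 CPM in High Run mice. D62 was the highest mouse and D9 the next, and without them all groups lay between 36.3 and 110.5 CPM. Gm38034, a gene model on the same strand that still awaits experimental evidence, overlaps Foxo1, and how reads in the shared stretch were counted is not given, so the Foxo1 level is uncertain to that extent.

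Foxo3 (chr10:42181841-42276755, minus strand), a regulator of both autophagy and proteasome genes in muscle, was at 63.6, 134.9, 41.0 and 43.1 CPM in Low Control and at 45.1, 39.3, 32.2 and 42.8 CPM in Low Run mice. It was at 44.6, 37.7 and 37.6 CPM in High Control and at 46.0, 39.2, 39.0 and 102.9 CPM in High Run mice. D9, D62 and D8 were the 3 highest, and the other 12 mice differed by little. Foxo4 (chrX:101254528-101260873, plus strand), a close paralog with the same kind of DNA-binding domain, had a narrow range of 169.7 to 266 CPM over all mice, with D9 at 266, D8 at 263.5 and D62 at 249 CPM on top.

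Klf15 (chr6:90462576-90475238, plus strand), a glucocorticoid receptor target that drives amino acid catabolism, was at 127, 165, 57.5 and 50.9 CPM in Low Control and at 55.0, 53, 47.2 and 78.65 CPM in Low Run mice. It was at 96.35, 78.8 and 81.6 CPM in High Control and at 59.85, 60.9, 61.8 and 176 CPM in High Run mice. The 3 High Control mice lay above 3 of the 4 High Run mice, D62 was the exception, and D9 and D62 were the highest of all mice. Cavin4 (chr4:48663514-48673502, plus strand), a muscle-specific coat protein of caveolae, ranged from 111 CPM in D53 to 256.5 CPM in D62, and the other 13 mice lay between 139 and 172 CPM.

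Compared per kilobase of exon (RPKM), which allows levels of different genes to be set side by side, Trim63 had the highest median over all mice at 159 RPKM, followed by Fbxo32 at 81.1, Cavin4 at 75.6, Fbxo40 at 72.3, Foxo4 at 54.55, Fbxo31 at 46.2, Klf15 at 22.1, Foxo1 at 6.03, Foxo3 at 5.65 and Fbxo30 at 3.71 RPKM. Trim63 was above Fbxo32 in 15 of 15 mice, Fbxo31 above Klf15 in 15, Klf15 above Foxo1 in 15 and Foxo3 above Fbxo30 in 15. Fbxo32 was above Cavin4 in only 8 mice and Cavin4 above Fbxo40 in 9, so these 3 neighbors did not differ beyond their spread. Dividing by coding length instead put Fbxo32 first and Trim63 next, and left 4 of the 10 ranks in place. Foxo4 was thus the most abundant of the FoxO transcripts on the RPKM scale, while Foxo1 had the largest excursion.

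**Figure D2:**
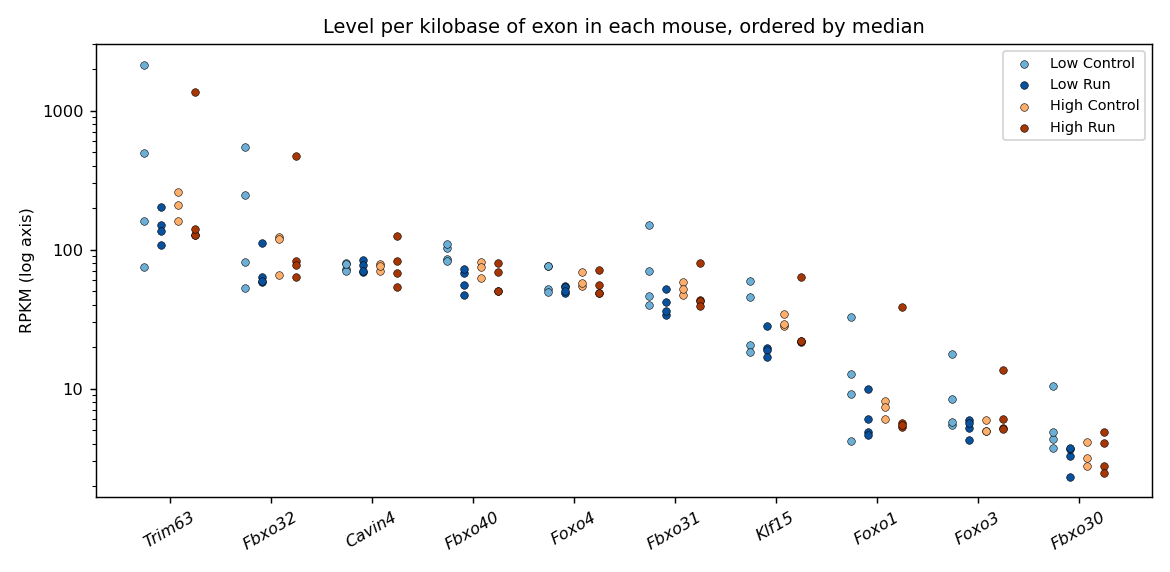
Level per kilobase of exon (RPKM, log axis) of each gene in every mouse, with genes ordered by their median and points colored by group. Trim63 is highest with a median of 159 RPKM and Fbxo30 lowest with 3.71, and the few high points of Trim63, Fbxo32, Foxo1, Foxo3 and Klf15 are D9, D62 and D8.

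The response to running in the Low group was compared first. Low Run mice had lower fitted levels than Low Control mice for all 10 genes (Cavin4 turned to 0.06 under upper-quartile scaling), with a median log2 fold change of -0.83, where the median of all tested genes was 0.02. The difference was largest for Trim63, at -2.27 (SE 0.91), followed by Fbxo32 at -1.67 (SE 0.70), Foxo1 at -1.20 (SE 0.65) and Fbxo31 at -0.90 (SE 0.34). None of the 10 was called at an FDR under 0.1, as was the case for 0% of all genes. The lowest FDR was 0.358, shared by Fbxo32, Trim63, Fbxo30, Fbxo31 and Fbxo40.

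At an unadjusted p under 0.05, 6 of the 10 were lower in Low Run mice, against 7.52% of all genes, and these were Fbxo32, Trim63, Fbxo30, Fbxo31, Fbxo40 and Foxo3. Of these, Fbxo40 had the smallest p, 0.00255, with a log2 fold change of -0.65 (SE 0.18), and it was the only gene of the 10 whose groups did not overlap, against 3.59% of all genes with non-overlapping groups in this direction. Without D9 and D62, every difference except that of Cavin4 shrank, Trim63 to -0.72 (SE 0.43), Fbxo32 to -0.81 (SE 0.41) and Foxo1 to -0.46 (SE 0.31), and only Fbxo40, at -0.58 (SE 0.18), kept an unadjusted p under 0.05, of 0.00553. The count of 6 fell to 1 without D9 alone (beside 5.03% of all genes in either direction), and to 3 without D61 or without D66 (13.1% each). It was 9 without D98, where the share of all genes was 17.2%. DESeq2's Wald test gave 7 of 10 at that p, beside 7.46% of 35419 genes in either direction, and called 9 genes, none of them among the 10. Voom with sample quality weights gave 1 of 10, near its share of 8.19% of all genes, and called 0.

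In High mice the same comparison gave differences of mixed sign. The fitted log2 fold change of High Run against High Control was 1.06 (SE 0.97) for Trim63, 0.93 (SE 0.71) for Foxo1, 0.76 (SE 0.75) for Fbxo32 and 0.51 (SE 0.39) for Foxo3, and it was -0.23 (SE 0.19) for Fbxo40, -0.11 (SE 0.18) for Foxo4 and -0.04 (SE 0.37) for Fbxo31. The median of the 10 was 0.11 and that of all genes 0.05. None was called, against 0% of all genes, and none had an unadjusted p under 0.05, against 5.18%.

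The positive differences of Trim63, Foxo1 and Fbxo32 turned negative without D62. With D9 and D62 left out, Trim63 was at -0.67 (SE 0.47), Klf15 at -0.50 (SE 0.28), Fbxo32 at -0.47 (SE 0.44), Foxo1 at -0.40 (SE 0.33) and Fbxo31 at -0.35 (SE 0.20), and the median of the 10 was -0.30. Foxo3 fell to 0.04 (SE 0.17). Klf15 had the smallest p of these, 0.0926, with an FDR of 0.785.

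The interaction asks whether the running response differed between the frailty groups. It was positive for all 10 genes, with a median of 0.89 on the log2 scale beside 0.03 for all genes. Trim63 was at 3.33 (SE 1.34), Fbxo32 at 2.44 (SE 1.03), Foxo1 at 2.13 (SE 0.96) and Foxo3 at 1.33 (SE 0.53), and these 4 had an unadjusted p under 0.05, against 5.24% of all genes in this direction. None was called, as with 0% of all genes, and the lowest FDR among the 10 was 0.60. DESeq2 gave 5 of 10 at an unadjusted p under 0.05 (4.72% of its genes in either direction) and voom with quality weights 0 (10.4%), and both called 0.

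Either of the 2 mice decided this count, which was 0 without D9, 0 without D62 and 0 without both. The shares of all genes in either direction were then 4.66%, 5.16% and 4.42%. The count was also 1 without D25 (beside 5.32%), and 2 without D61 (8.2%) or without D66 (7.45%). Without both, the interaction was 0.05 (SE 0.64) for Trim63, 0.34 (SE 0.60) for Fbxo32, 0.06 (SE 0.45) for Foxo1 and 0.36 (SE 0.23) for Foxo3, and the median of the 10 was 0.06.

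**Figure D3:**
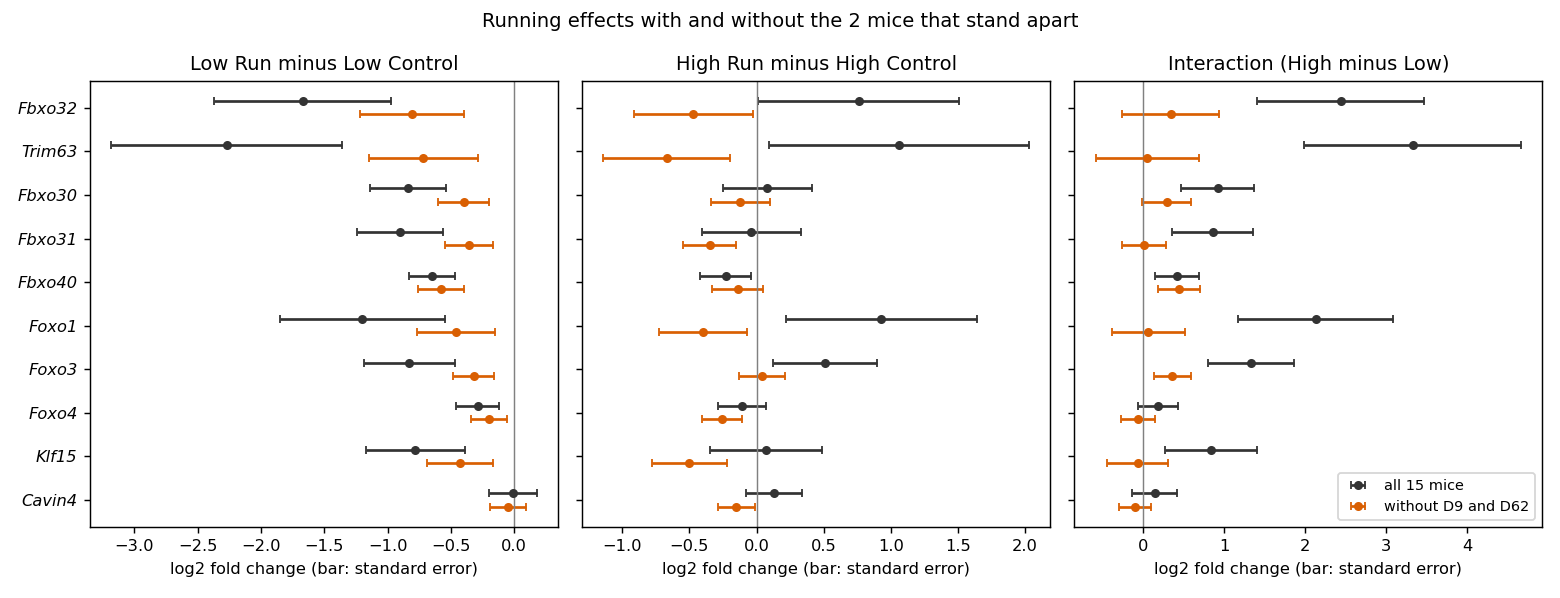
Log2 fold change of each gene for running in Low mice, for running in High mice and for their difference, with standard errors, in all 15 mice (dark) and without D9 and D62 (orange). The Trim63 interaction moves from 3.33 to 0.05, while Fbxo40 keeps a difference near -0.6 in Low mice in both fits.

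Between sedentary mice, High Control was lower than Low Control in fitted level for all 10 genes (Cavin4 turned to 0.04 under upper-quartile scaling), with a median of -0.67 beside -0.02 for all genes. Trim63 was at -1.78 (SE 1.00), Fbxo32 at -1.19 (SE 0.76) and Fbxo30 at -0.81 (SE 0.33). Of the 10, 0 were called, as for 0% of all genes, and only Fbxo30 had an unadjusted p under 0.05, of 0.027, against 4.06% of all genes that were lower. Fbxo40 was lower in all 3 High Control mice than in any Low Control mouse, at -0.38 (SE 0.20), where 5.27% of all genes had such non-overlapping groups. Without D9 the median became -0.26, Trim63 was at -0.23 and none of the 10 had an unadjusted p under 0.05, beside 2.63% of all genes. The count of 1 was 5 when no filter on low counts was applied (beside 5.43% of 35419 genes in either direction) and 2 by DESeq2 (3.53%). It was also 0 without D23 (4.73%) or without D25 (2.94%), 2 without D11 (8.05%) and 3 without D98 (10.7%).

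After running, High Run was higher than Low Run in fitted level for all 10 genes, with a median of 0.42 beside 0.01 for all genes, led by Trim63 at 1.55 (SE 0.89), Fbxo32 at 1.25 (SE 0.69) and Foxo1 at 1.10 (SE 0.65). None was called or had an unadjusted p under 0.05, against 0% and 2.51% of all genes. Leaving out D62 alone took Trim63 to -0.17 and Foxo1 to -0.22, and left Fbxo32 at 0.02. With no filter on low counts, 4 of the 10 were higher at that p, beside 3.91% of 35419 genes in either direction. Leaving out D52 gave 1 of the 10 with an unadjusted p under 0.05, beside 2.5% of all genes in either direction.

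These comparisons share their control and run mice, so that D9 enters both the Low running response and the sedentary comparison, and D62 both the High running response and the comparison after running. The running effect adjusted for frailty uses all mice at once, and asks what running did at the same frailty. Its median over the 10 genes was -0.41, beside 0.02 for all genes, and 9 of 10 were negative. Only Fbxo40 had an unadjusted p under 0.05, of 0.00486, at -0.45 (SE 0.14, FDR 0.403), where 3.11% of all genes were lower at that level, and 0 of 10 were called, against 0% of all genes. DESeq2 called 109 genes for this effect, none of them among the 10. The Fbxo40 value ranged from -0.54 to -0.39 as each mouse was left out in turn.

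The adjusted effect became more uniform once the 2 mice were removed. Trim63 was then at -0.70 (SE 0.31), Fbxo32 at -0.65 (SE 0.29), Klf15 at -0.46 (SE 0.18), Fbxo40 at -0.38 (SE 0.14), Fbxo31 at -0.35 (SE 0.13) and Foxo4 at -0.23 (SE 0.10). These 6 had an unadjusted p under 0.05, against 4.07% of all genes that were lower, with FDR from 0.375 for Fbxo40 to 0.484 for Foxo4, so none was called. Leaving out D62 alone gave 8 of 10, beside 12.8% of all genes in either direction. Leaving out D9 alone gave 1, near its share of 7.78%, and leaving out D11 alone gave 2, beside 8.92%. Without both, Foxo1 at -0.43 (SE 0.22) and Fbxo30 at -0.27 (SE 0.15) pointed the same way with p of 0.0659 and 0.0871 by edgeR, Foxo3 was at -0.15 (SE 0.12), and Cavin4 at -0.10 (SE 0.10). The fit without D9 and D62 kept Low Control mouse D8, which ranked 3 of 15 for Trim63 and Fbxo32. Its Trim63 level was 1413 CPM, beside 452 and 212 CPM in D11 and D98. Leaving out D8 together with D9 and D62 was not tested.

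The 2 mice that stood apart shared this gene set. Both D9 and D62 exceeded every other mouse of their group for 8 of the 10 genes (80%), a position that 20.8% of all genes had. Relative to the median of the other mice of the group, the median ratio over the 10 genes was 3.00 in D9 and 2.24 in D62, and 0.9905 and 0.999 over all genes. Trim63 was 13.45 times the group median in D9 and 10.5 times in D62, Fbxo32 6.78 and 6.09 times, and Foxo1 3.56 and 7.04 times. Foxo4 was 1.46 times in each. D9 had not run and is labelled robust, and D62 had run and is labelled frail.

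Other genes known as FoxO targets were high in the same mice. Of 17 other FoxO target genes, 12 (70.6%) were above every other mouse of the group in both D9 and D62, beside 20.8% of all genes. Pdk4, which turns muscle from glucose to fat oxidation, was 9.08 times the group median in D9 and 9.23 times in D62, Sesn1, a stress-induced inhibitor of mTORC1, 6.96 and 9.25 times, and Eif4ebp1, a repressor of translation, 5.77 and 6.79 times. The autophagy genes Bnip3 (3.29 and 4.28 times), Gabarapl1 (2.96 and 2.56 times) and Ulk1 (3.605 and 2.05 times) were high in both. Bcl6, Sesn3 and Sod2 (17.6% of the list) were below every other mouse of the group in both, beside 20.6% of all genes.

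Glucocorticoid-responsive genes and Klf15 targets gave a similar count, with 10 of 13 (76.9%) above the rest of the group in both mice, beside 20.8% of all genes. Ddit4 (REDD1, an mTORC1 inhibitor) was 14.55 and 10.4 times the group median, Cebpd 15.9 and 8.45 times, Fkbp5 (a co-chaperone of the glucocorticoid receptor) 6.37 and 6.72 times, and the metallothionein gene Mt1 9.42 and 8.47 times. The receptor gene itself, Nr3c1, was 1.635 times in D9 and 0.8035 times in D62. Bcat2, a branched-chain amino acid transaminase gene, was lower than in every other mouse of the group in both, at 0.658 and 0.653 times.

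**Figure D4:**
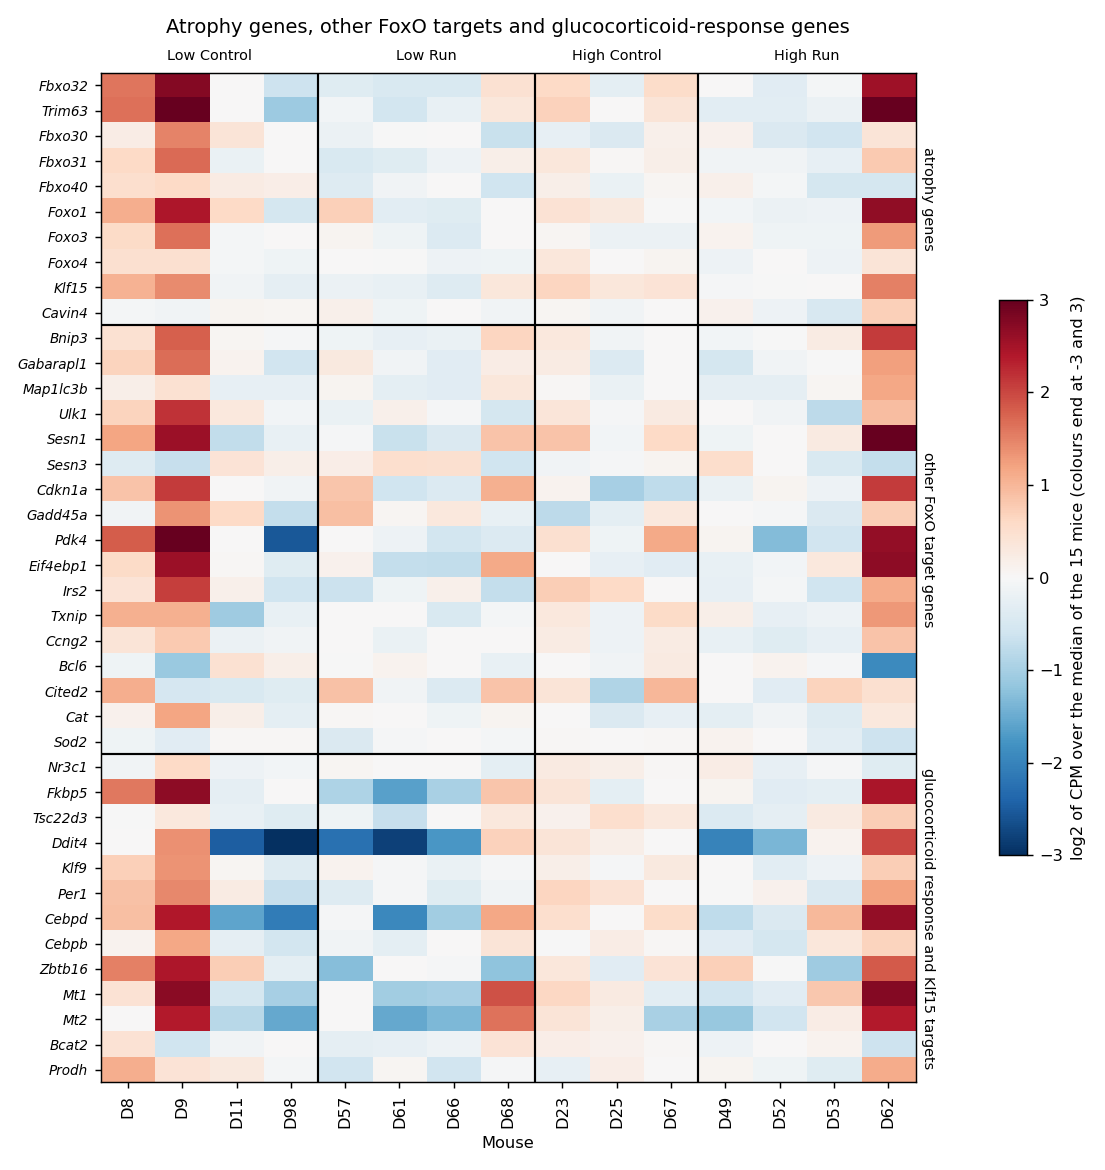
Level of the 10 atrophy genes, 17 other FoxO target genes and 13 glucocorticoid-response genes in each mouse, as log2 of CPM over the median of the 15 mice, with colors ending at -3 and 3. Columns D9 and D62 are red for most rows of all 3 blocks, and D8 is paler red. Rows that do not follow include Sesn3, Bcl6, Sod2 and Bcat2, below the other mice of the group in both. Fbxo40 is high in D9 but not in D62.

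The other ligase genes did not share this as a list. Of 23 other muscle ubiquitin ligase and ubiquitin genes, 7 (30.4%) were above the rest in both mice and 5 (21.7%) below, where 20.6% of all genes were below, with median ratios of 1.06 and 1.16. Cblb, a ligase for IRS1, was 3.30 and 1.96 times the group median, whereas Trim55 (MuRF2), a close relative of Trim63, was 0.585 and 0.615 times. Of 6 genes of the SCF and cullin core, 1 (16.7%) was above in both and 0 below, beside 20.8% and 20.6% of all genes. Of 9 caveola and cavin genes, to which Cavin4 belongs by function, 0 were above in both mice and 6 (66.7%) below, again beside 20.6% of all genes, and Cav3, the muscle caveolin gene, was 0.494 and 0.707 times.

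Signs of other tissue components moved with these mice as well. Macrophage markers (6 of 6 detected in every mouse) summed to 55.4 CPM in D9 and 63.2 CPM in D62, where the group ranges were 55.4 to 114 CPM in Low Control, 78.9 to 123 CPM in Low Run, 44.9 to 74.35 CPM in High Control and 63.2 to 147 CPM in High Run. Fibroblast markers summed to 686.5 and 554 CPM, the lowest of either group, and slow fiber markers to 1614 CPM in D9, the lowest of Low Control, and to 4101 CPM in D62, the highest of all mice. Skeletal muscle markers summed to 133100 and 117400 CPM, the lowest of Low Control and of High Run. Schwann cell markers summed to 98.3 CPM in D9 and to 283.5 CPM in D62, the highest of all mice. For blood, erythroid genes (4 of 4 detected in every mouse) summed to 478 to 2322 CPM in Low Control and 238 to 801 CPM in Low Run. The sums were 301 to 476 CPM in High Control and 373 to 3729 CPM in High Run. The highest was in D53, while D9 had 549 CPM and D62 1299 CPM. All 4 erythroid genes were higher at an unadjusted p under 0.05 in High Run against High Control, beside 5.18% of all genes in either direction. In the same comparison 3 of 6 macrophage, 3 of 6 slow fiber and 1 of 4 Schwann cell markers were also higher at that p. Of the 8 skeletal muscle markers, 1 was lower. For the interaction, 4 of 4 erythroid and 3 of 4 Schwann cell genes were higher at that p, beside 5.24% of all genes in this direction. Of all these marker genes, 0 passed an FDR of 0.1. The part of these differences in the levels of the atrophy genes was not tested.

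Across mice, Fbxo32 and Trim63 were tied closely to each other and to Klf15. After each group mean was removed, log2 CPM of Fbxo32 and Trim63 correlated at Pearson's r = 0.980 (p = 8.44e-05, adjusted 0.00076) and Spearman's rho = 0.964 (p = 0.000579) over 15 mice, by exact permutation of mice within groups, two-sided, with 9 pairs computed. Klf15 correlated with Fbxo32 at r = 0.977 (exact permutation p = 0.000169, adjusted 0.00076; rho = 0.954, p = 0.00102) and with Trim63 at r = 0.961 (p = 0.000301, adjusted 0.000904; rho = 0.986, p = 0.000109). Without D9 and D62, the 2 mice farthest from the median, these 3 correlations were 0.946, 0.933 and 0.921, with exact permutation p of 0.00135, 0.0027 and 0.00482 and adjusted p of 0.0122, 0.0122 and 0.0145. The relation among Klf15, Fbxo32 and Trim63 thus held over the 13 remaining mice.

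Foxo1 correlated with Trim63 at r = 0.938 and with Fbxo32 at r = 0.895, with exact permutation p of 0.00287 and 0.0051 (adjusted 0.00614 and 0.00659), and rho of 0.861 and 0.821 (p = 0.00328 and 0.00622). For Foxo3, r was 0.947 with Trim63 and 0.928 with Fbxo32, with exact permutation p of 0.00526 and 0.00341 (adjusted 0.00659 and 0.00614) and rho of 0.896 and 0.886 (p = 0.00456 and 0.00421). Foxo4 was at r = 0.866 and 0.861, with exact permutation p of 0.00586 and 0.0153 (adjusted 0.00659 and 0.0153) and rho of 0.861 and 0.85 (p = 0.00869 and 0.0143). None of these 6 relations passed without D9 and D62, although r stayed positive. It was then 0.757 and 0.591 for Foxo1, 0.702 and 0.739 for Foxo3, and 0.783 and 0.72 for Foxo4, and the exact permutation p ranged from 0.0685 for Foxo3 with Fbxo32 to 0.277 for Foxo1 with Fbxo32.

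**Figure D5:**
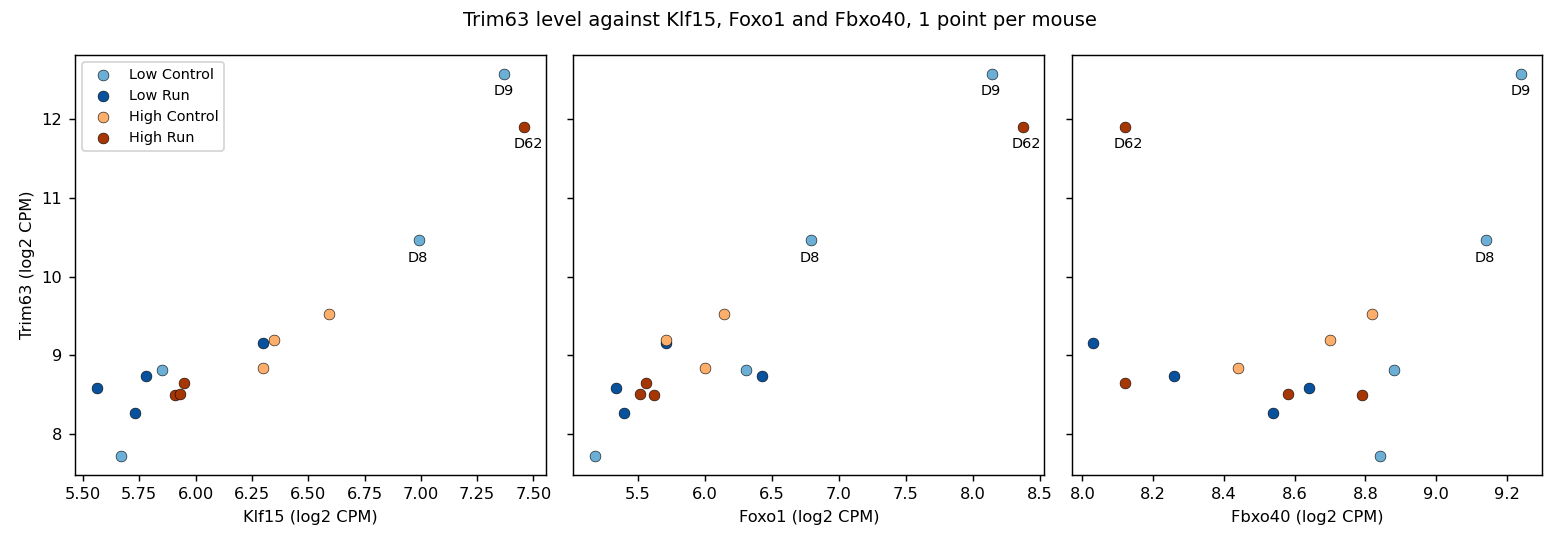
Trim63 level against Klf15, Foxo1 and Fbxo40 (log2 CPM), with a point for each mouse colored by group. Trim63 rises with Klf15, with scatter among the mice lowest in Klf15, where D66 has a Trim63 level of 8.59 and D98 of 7.73. The points of Foxo1 scatter more widely below the 3 highest mice, D9, D62 and D8. Fbxo40 shows no clear rise, with r = 0.2295 over 15 mice and 0.281 without D9 and D62. These 2 values are Pearson's r of log2 CPM with group means left in.

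Profiles of all 16920 genes were compared across the 15 mice by Pearson's r of log2 CPM, here with group means left in. The profiles most like that of Fbxo32 were Trim63 (0.980), Sorbs3 (0.976) and Gucd1 (0.976). Those most like Trim63 were Doc2b (0.981), Fbxo32 (0.980) and Sorbs3 (0.976). Klf15 was closest to Sorbs3 (0.969), Fbxo32 (0.961) and Cyp27a1 (0.959), and Foxo1 to Rxrb (0.974), Tbc1d17 (0.960) and Srsf5 (0.960). Without D9 and D62, r stayed above 0.9 for all 9 neighbors of Fbxo32, Trim63 and Klf15, and was 0.879, 0.838 and 0.825 for those of Foxo1. The profiles share the same libraries, and 275 genes had r above 0.9 with Trim63, 178 with Fbxo32, 133 with Foxo1 and 58 with Klf15.

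The related lists were also compared between groups. In Low Run against Low Control, 0 of 17 other FoxO target genes passed an FDR of 0.1, 3 were lower at an unadjusted p under 0.05, against 7.52% of all genes, and the median was -0.58. In the 13 mice without D9 and D62, 1 was lower at that p, against 3.65% of all genes, and the median was -0.11. Ulk1, the autophagy kinase gene, was at -1.19 (SE 0.42) and Irs2 at -1.15 (SE 0.48). Of 13 glucocorticoid-response and Klf15 target genes 0 passed, 4 were lower at that unadjusted p and the median was -0.66, with Zbtb16, a glucocorticoid-induced repressor gene, at -1.92 (SE 0.59) and Fkbp5 at -1.85 (SE 0.74). In those 13 mice 2 were lower, beside the same 3.65% of all genes, and the median turned to 0.06. Of 16 regulators of FoxO 0 passed and 4 were lower, among them the insulin receptor gene Insr at -0.80 (SE 0.25). Without D9 and D62, 2 were lower, again beside 3.65%.

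In High Run against High Control 0 genes of these 3 lists passed. None had an unadjusted p under 0.05, against 5.18% of all genes, and the medians of the lists were 0.14, 0.31 and -0.06. Without D9 and D62 these medians changed sign, to -0.11, -0.23 and 0.01. Then 2 FoxO targets and 1 regulator of FoxO were lower at that p, against 2.64% of all genes. For the interaction 0 passed, and 3 genes of each list were higher at an unadjusted p under 0.05, against 5.24% of all genes. Of the regulators of FoxO, 1 was lower (7.93% of all genes had such a p in either direction). Pik3r1, a regulatory subunit gene of PI 3-kinase, was at 2.22 (SE 0.72), Zbtb16 at 2.50 (SE 0.86) and Eif4ebp1 at 2.45 (SE 1.05). Without D9 and D62 the interaction medians of the 3 lists were -0.02 for other FoxO targets, -0.23 for glucocorticoid-response genes and 0.02 for regulators of FoxO, beside 0 for all genes. Then 2 of 16 regulators of FoxO were higher at that p, against 2.68% of all genes, and 0 genes of the other lists of the 3.

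Among 23 other ligase and ubiquitin genes 0 passed in any of the 6 comparisons, and the median stayed between -0.17 and 0.08. For running adjusted for frailty, Wwp1, a HECT ligase gene, was at -0.35 (SE 0.11) and, of the 6 SCF and cullin genes, the cullin gene Cul3 at -0.30 (SE 0.08). Of 10 genes encoding substrates of these ligases 0 passed, and the fast myosin-binding protein gene Mybpc2 was at -0.40 (SE 0.12) in that comparison. Wwp1, Cul3 and Mybpc2 had FDR of 0.411, 0.384 and 0.392. Of the 9 caveola and cavin genes 0 passed or had an unadjusted p under 0.05 in any of the 6 comparisons, with medians from -0.19 to 0.13.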

How the data were processed

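Gastrocnemius RNA from 15 mice was analyzed, 1 library per mouse. The authors used STAR 2.7.9a for alignment (mm10) and featureCounts for counting, per the submitters' processing notes from Subread 2.0.3, with another version in the methods. Only proper pairs with a unique position, on the strand of the gene, entered the deposited counts, which are not normalized and hold no mitochondrial genes. The deposited log2-like values are the authors' variance-stabilizing transformation of these counts by DESeq2, computed again here to within 5.3e-14 and used only for a principal component and as an alternative. Every column was used.

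Tests across genes were run in edgeR 4.0.16 under R 4.3.3 (filterByExpr, TMM, quasi-likelihood F-test, 1 mean per group, all 15 mice, Benjamini-Hochberg over 16920 genes). The running effect adjusted for frailty came from an additive model. Symbols and lengths were taken from GENCODE M21, which names 55104 of 55450 genes. Correlations used log2 CPM with a prior count of 2 in Python 3.11.15 with SciPy 1.17.1. Scripts were tested on simulated data. Alternatives were DESeq2 1.42.0, RLE and upper-quartile scaling, other count filters, fits to the 2 groups of a comparison alone, voom with quality weights (limma 3.58.1), length and GC offsets, and leaving out mice. The genes, the related lists and the markers were chosen with earlier results of these data known. Related genes were named by a rule, up to 4 of each list with the smallest p for running adjusted for frailty or for the interaction in edgeR, and the 3 most similar profiles for 4 of the genes. Pdk4, Sesn1, Bnip3, Gabarapl1, Ddit4, Cebpd, Mt1, Bcat2, Bcl6, Sesn3 and Sod2 were named after their values were seen.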

Additional observations from a re-analysis of the deposited data

Results flagged for a closer look

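In 8 of the 30 groups of 4 mice tested (10 genes in 3 groups; High Control has 3 mice and was not tested), a single mouse lay farther from the rest than Dixon's 95% critical value allows, where chance flags about 1 group in 20 and the genes are not independent. High Run mouse D62 was the high value for Fbxo32 (3293 CPM), Trim63 (3834 CPM), Fbxo31 (436 CPM), Foxo1 (331.9 CPM), Foxo3 (102.9 CPM) and Klf15 (176.1 CPM). Low Control mouse D9 was the high value for Fbxo30, at 54.39 CPM. For Trim63, Fbxo32 and Klf15, D9 was not set apart by this measure, since D8 lay between D9 and the other Low Control mice. Low Run mouse D68 was the high value for Fbxo32, at 772.4 CPM.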

How the results depend on the processing

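None of the 10 genes was called in any of the 6 comparisons by any alternative run, which included DESeq2, voom with quality weights and leaving out each mouse. Over all genes, edgeR called 0 in each comparison, whereas DESeq2 called 9 for running in Low mice, 15 in High mice and 109 adjusted for frailty, voom 45 in High mice, and edgeR with no count filter 86, 19 and 19 in these, 4 for the interaction and 6 after running. With no count filter, the genes of the 10 at an unadjusted p under 0.05 numbered 5 between sedentary groups, 4 after running and 3 adjusted for frailty, in place of 1, 0 and 1. The shares of all genes in either direction were 5.43%, 3.91% and 7.51%, in place of 5.86%, 2.51% and 8.81%. The 60 log2 fold changes kept their sign under DESeq2, RLE scaling and both other count filters, and the 40 pairwise ones in a fit to only the 2 groups compared. Upper-quartile scaling reversed Cavin4, to 0.06 in Low mice and 0.04 between sedentary groups, and length and GC offsets reversed it to -0.04 for running adjusted for frailty. With voom and quality weights, running in High mice reversed to -0.35 for Fbxo32, -0.47 for Trim63, -0.09 for Fbxo30, -0.20 for Foxo1, -0.39 for Klf15 and -0.05 for Cavin4. The interaction of Trim63 became -0.02 and the median interaction 0.19. The sedentary difference became 0.13 for Trim63, 0.03 for Fbxo31, 0.06 for Foxo4 and 0.26 for Klf15, with a median of -0.04. High Run against Low Run became -0.13 for Fbxo30 and -0.04 for Cavin4, and the adjusted effect of Cavin4 -0.06. The cause was not tested.

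Without both D9 and D62, running in High mice reversed to -0.47 for Fbxo32, -0.67 for Trim63, -0.12 for Fbxo30, -0.40 for Foxo1, -0.50 for Klf15 and -0.15 for Cavin4. The median interaction became 0.06, and that of Foxo4 -0.06, of Klf15 -0.07 and of Cavin4 -0.10. The sedentary difference became 0.01 for Fbxo31, 0.02 for Foxo4 and 0.12 for Klf15. High Run against Low Run became -0.17 for Trim63, -0.08 for Fbxo30, -0.22 for Foxo1, -0.03 for Foxo4 and -0.14 for Cavin4, and the adjusted effect of Cavin4 -0.10. The correlations that no longer passed were Foxo1 with Fbxo32 (0.591) and Trim63 (0.757), Foxo3 with Fbxo32 (0.739) and Trim63 (0.702), and Foxo4 with Fbxo32 (0.72) and Trim63 (0.783). Coding length kept 4 and CPM 5 of the 10 ranks of level.

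With each mouse left out in turn, correlations of Fbxo32 ranged from 0.82 to 0.937 with Foxo1 and from 0.797 to 0.898 with Foxo4, and Foxo4 with Trim63 from 0.804 to 0.896, lowest without D62 and then above an adjusted p of 0.05. Running in High mice ranged from -0.47 to 1.04 for Fbxo32, -0.67 to 1.36 for Trim63, -0.12 to 0.26 for Fbxo30, -0.35 to 0.07 for Fbxo31, -0.40 to 1.2 for Foxo1, -0.50 to 0.21 for Klf15 and -0.15 to 0.29 for Cavin4. Cavin4 ranged from -0.07 to 0.02 in Low mice, -0.13 to 0.30 for the interaction, -0.05 to 0.04 between sedentary groups, -0.14 to 0.29 after running and -0.08 to 0.12 adjusted for frailty. Sedentary differences ranged from -0.75 to 0.01 for Fbxo31, -0.18 to 0.02 for Foxo4 and -0.45 to 0.12 for Klf15. High Run against Low Run ranged from -0.17 to 1.86 for Trim63, -0.08 to 0.25 for Fbxo30, -0.10 to 0.14 for Fbxo40, -0.22 to 1.40 for Foxo1 and -0.03 to 0.17 for Foxo4. The adjusted effect ranged from -1.60 to 0.13 for Trim63, -0.86 to 0.21 for Foxo1 and -0.46 to 0.08 for Foxo3. No paired analysis was possible because the labels number the mice and no number is shared between groups. With 3 or 4 mice a group, the spread between mice and not the depth limits these comparisons.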
